A study of Arabidopsis thaliana with 70 samples.

Results

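Leaf RNA of rdd was compared with that of wild type (WT) after a water pretreatment and a short challenge with live bacteria. rdd is an Arabidopsis thaliana line that carries mutations in ROS1, DML2 and DML3, which encode DNA demethylases. Both groups were 4-week-old, soil-grown plants whose leaves were hand-inoculated with water and, 24 h later, with Pseudomonas syringae pv. tomato DC3000 hrcC for 1 h. The hrcC strain lacks a working type III secretion system, so it presents bacterial molecules to the plant without injecting effector proteins. The members were the 4 libraries whose labels name this treatment, 2 of rdd and 2 of WT, among 38 RNA libraries and 70 samples in all. Seedling groups (10 days old, with 0, 1 and 3 h of flg22) are used below only for comparison. So are leaf groups sampled 24 h after water or 100 nM flg22 without bacteria. Leaf groups given flg22 and then hrcC are compared too. Their 4 libraries also entered the filter and the estimate of spread behind the p-values of the main comparison. The mutant alleles of rdd, the WT accession and the number of plants per library are not given in the sources used here. Each hrcC group has 2 libraries, although the design text speaks of 3 RNA repeats.

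Plants sense conserved microbial molecules such as flagellin through surface receptors, and within an hour switch on early immune genes. Salicylic acid later drives a second set that includes the PR genes. 5-methylcytosine in promoters, transposons and repeats can silence nearby genes. ROS1, DML2, DML3 and DME are DNA glycosylases that cut out 5-methylcytosine, and their loss lets methylation build up at their targets. The study asks how this active demethylation bears on immunity triggered by microbial molecules.

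The values were read as FPKM (fragments mapped to a gene, scaled by its length and by the library's total), and read depth is unknown. The FPKM totals of the 4 libraries lay between 952416 and 962233, with 0.0847% to 0.109% in organelle genes. Pearson's r across 17780 genes was 0.9862 within rdd, 0.9876 within WT and 0.9788 to 0.9824 between genotypes. Leaf identity was checked with markers, and 38 nuclear photosynthesis genes summed to between 79410 and 95550 FPKM per library. Of 14 root markers 12, among them the root-hair gene EXPA7 and the endodermis gene CASP1, were at or near 0. The other 2 were SCR (6.78 and 6.58 FPKM in rdd leaves, 5.89 and 5.47 FPKM in WT leaves) and AT4G22160 (8.38 and 7.82 FPKM in rdd leaves, 8.05 and 6.05 FPKM in WT leaves). Nothing in the labels says that the libraries came from separate plants, so p-values measure the spread between these libraries, which may be technical.

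Among the mutated genes, ROS1 had 22.4 and 25.1 FPKM in rdd leaves, against 10.1 and 10.3 FPKM in WT leaves. Both rdd libraries were above both WT libraries, and the log2 difference of FPKM + 1 (rdd minus WT, used throughout) was 1.15 ± 0.14 (SE, adjusted p = 0.0175, limma). DML2 had 2.83 and 2.62 FPKM in rdd leaves and 2.91 and 2.13 FPKM in WT leaves, with overlapping groups (adjusted p = 0.921). DML3 was low everywhere, at 0.49 and 0.48 FPKM in rdd leaves and 0.80 and 0.71 FPKM in WT leaves, and was not tested because too few libraries reached 1 FPKM. DME, which is not mutated in rdd, had 27.1 and 26.4 FPKM in rdd leaves and 29.4 and 29.2 FPKM in WT leaves (adjusted p = 0.75). Without the positions of the mutations, a transcript level does not check the genotype labels. ROS1 lost its call when any 1 of the 4 libraries was left out (adjusted p from 0.0736 to 0.117, log2 difference from 1.07 to 1.23). Of the other 15 tested genes of DNA demethylation, none passed, and none of the 17 tested genes of RNA-directed DNA methylation or the 14 of methylation maintenance did. The medians of those 3 lists were -0.02, -0.04 and -0.11, beside -0.01 over all genes tested. In the methylation maintenance list, DDM1 and VIM3 met the filter through 1 group alone, and the median of the other 12 was -0.08.

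Across the transcriptome, 168 of 17780 genes tested were called at an adjusted p under 0.05 (0.945%), 114 higher in rdd (0.641%) and 54 lower (0.304%). Of these, 56 were at least 2-fold higher and 40 at least 2-fold lower on the FPKM + 1 scale. The larger changes were losses of transcript: 12 genes fell by 2.87 or more on the log2(FPKM + 1) scale, whereas CYP97B3 and PR5 led the called increases at 3.12 and 2.36. Of the 168, 5 higher and 5 lower genes met the filter on low values only through the water-pretreated group where they were high. Their calls are therefore no support for a difference. That count leaves out genes carried by both groups of 1 genotype. AT3G01345, AT4G04223, MRD1, QQS, LBD26 and CRK39, for example, reached 1 FPKM in no rdd library given hrcC. WT libraries alone carried them past the filter, though those given flg22 and then hrcC sufficed for it. Leaving out 1 library at a time left 48 calls without rdd replicate 1 (25 higher and 23 lower), 52 without rdd replicate 2 (22 higher and 30 lower), 75 without WT replicate 1 (52 higher and 23 lower) and 35 without WT replicate 2 (16 higher and 19 lower), of which 37, 41, 48 and 32 were among the 168. The majority of higher over lower calls was therefore lost without rdd replicate 2 or WT replicate 2. Leaving out flg22-pretreated WT replicate 1 or 2, which share the estimate of spread, gave 103 (61 higher and 42 lower) or 102 calls (61 higher and 41 lower).

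**Figure D1:**
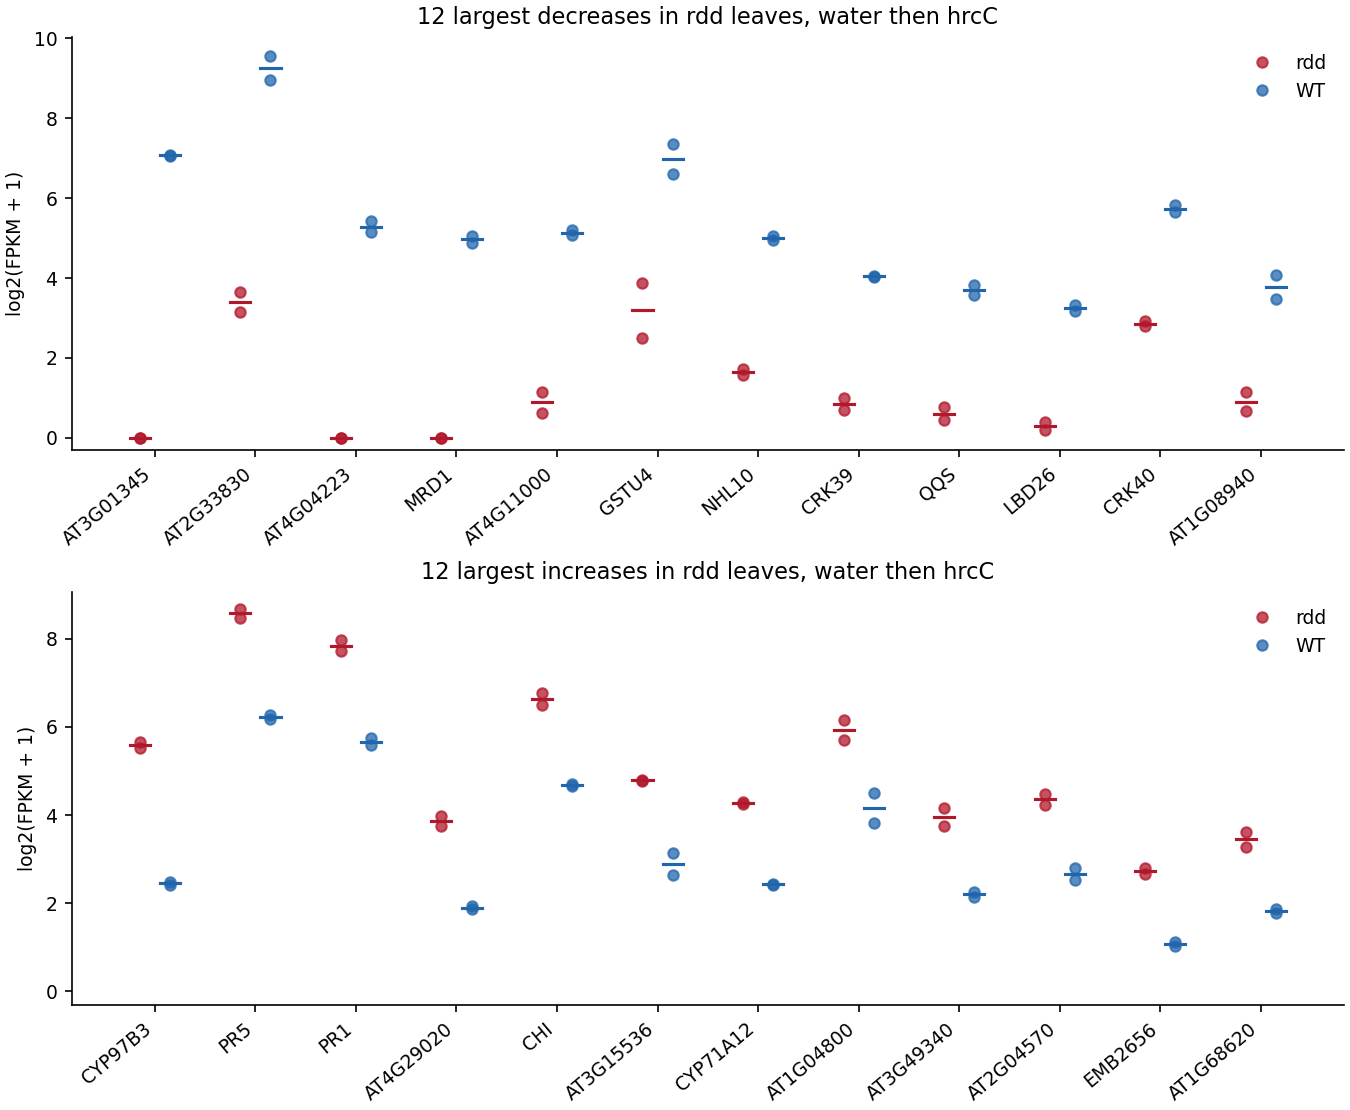
Levels of the 12 called genes with the largest decreases and the 12 with the largest increases in rdd leaves after water and then hrcC, among those averaging at least 5 FPKM in the higher genotype, as log2(FPKM + 1) on the vertical axis. Points are the 2 rdd (red) and 2 WT (blue) libraries, bars are means. AT3G01345, AT4G04223 and MRD1 lie at 0 in both rdd libraries, and no gene shown has overlapping groups, which the choice of genes required.

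Among the leading genes, 3 were listed at 0 in both rdd libraries. AT3G01345, a protein-coding gene with no symbol in the annotation, was listed at 0 in both rdd libraries, against 131 and 135 FPKM in WT leaves (adjusted p = 7.57e-08). The non-coding RNA gene AT4G04223 was listed at 0 in both rdd libraries, against 42.0 and 34.5 FPKM in WT leaves (adjusted p = 3.53e-06). MRD1, named for its fall in the methionine over-accumulating mutant mto1, was listed at 0 in both rdd libraries, against 28.6 and 32.1 FPKM in WT leaves (adjusted p = 3.05e-05). In each of them both WT libraries held a moderate to high level. MRD1 overlaps HEI10, which was also called lower (0.35 and 0.50 FPKM in rdd leaves, 4.82 and 3.96 FPKM in WT leaves, adjusted p = 0.0118), and reads of overlapping genes cannot be assigned with certainty.

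AT2G33830, annotated as a dormancy associated gene, was among the more abundant transcripts of WT leaves. It had 11.5 and 7.85 FPKM in rdd leaves, against 756 and 501 FPKM in WT leaves, a log2 difference of -5.87 ± 0.23 (SE, adjusted p = 6.96e-05). The WT mean was 64.9 times the rdd mean. AT4G11000 had 1.21 and 0.54 FPKM in rdd leaves and 35.7 and 32.7 FPKM in WT leaves (log2 difference -4.25 ± 0.20, SE, adjusted p = 0.00013), and overlaps AT4G11010. QQS, a gene known in Arabidopsis for natural variation in its DNA methylation and expression, had 0.70 and 0.35 FPKM in rdd leaves and 13.1 and 10.97 FPKM in WT leaves (log2 difference -3.10 ± 0.23, SE, adjusted p = 0.00128). LBD26, of the LOB-domain family of transcription factors, had 0.14 and 0.32 FPKM in rdd leaves and 9.03 and 8.09 FPKM in WT leaves (adjusted p = 0.000845). All of these remained called with any 1 of the 4 libraries left out, as did AT3G01345, AT4G04223 and MRD1. AT1G08940 (0.59 and 1.21 FPKM in rdd leaves, 15.8 and 10.1 FPKM in WT leaves, adjusted p = 0.00713) lost its call without rdd replicate 1 (adjusted p = 0.0515).

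Of 8 loci reported to depend on DNA methylation for their expression, 4 were tested. MRD1 and QQS fell, RMG1 had 11.2 and 12.1 FPKM in rdd leaves and 18.4 and 21.5 FPKM in WT leaves (adjusted p = 0.414), and the receptor-like protein gene RLP43 had 1.38 and 1.02 FPKM in rdd leaves and 2.48 and 1.25 FPKM in WT leaves (adjusted p = 0.872). RMG1 is an NLR gene known as a ROS1 target in Arabidopsis. The median of the 4 was -1.91, beside -0.01 over all genes tested, of which 0.304% were called lower. The other 4 members, the flowering gene FWA, SDC, the stomatal peptide gene EPF2 and AT4G18650, were below the filter.

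Among genes that answer microbial molecules within an hour, 1 marker fell strongly and 1 rose modestly. NHL10, a standard marker of flagellin-induced transcription, had 1.97 and 2.31 FPKM in rdd leaves, against 30.0 and 32.1 FPKM in WT leaves. The log2 difference was -3.35 ± 0.35 (SE, adjusted p = 0.0095), with every rdd value far under the WT values. FRK1, a receptor-like kinase gene that serves as the other common marker, went the opposite way. It had 363 and 388 FPKM in rdd leaves and 249.9 and 241 FPKM in WT leaves (log2 difference 0.61 ± 0.10, SE, adjusted p = 0.0485). NHL10 and FRK1 were the 2 of 30 tested early MAMP-response genes that passed (MAMPs are the microbial molecules plants sense), and both lost their call with any 1 of the 4 libraries left out (adjusted p up to 0.0917 for NHL10 and 0.26 for FRK1). In 24 of the 30 the difference was positive, with a list median of 0.27. Over all genes tested, 47.3% were positive, the median was -0.01 and 0.945% were called. Of the 30, 15 had both rdd libraries above both WT libraries (18.9% of all genes tested), among them the transcription factor genes WRKY17 (375 and 353 FPKM in rdd leaves, 251 and 219.7 FPKM in WT leaves, adjusted p = 0.0557) and WRKY40 (455 and 560.1 FPKM in rdd leaves, 332 and 325 FPKM in WT leaves, adjusted p = 0.127).

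The cysteine-rich receptor-like kinase (CRK) genes CRK36 to CRK40 lie close together on chromosome 4 and did not share a direction. CRK39 had 0.99 and 0.61 FPKM in rdd leaves, against 15.4 and 15.7 FPKM in WT leaves (log2 difference -3.20 ± 0.15, SE, adjusted p = 0.000105). CRK40 had 6.60 and 5.91 FPKM in rdd leaves, against 56.1 and 49.0 FPKM in WT leaves (log2 difference -2.88 ± 0.25, SE, adjusted p = 0.00445). Both fell, and both remained called with any 1 of the 4 libraries left out. CRK38 did not pass, at 84.2 and 77.6 FPKM in rdd leaves and 57.2 and 44.3 FPKM in WT leaves (adjusted p = 0.129), and CRK37 had 51.3 and 51.1 FPKM in rdd leaves and 27.3 and 25.8 FPKM in WT leaves (adjusted p = 0.164). Of the methionine sulfoxide reductase B genes, which repair oxidised methionine, MSRB8 rose, with 60.5 and 71.8 FPKM in rdd leaves and 19.9 and 22.3 FPKM in WT leaves (log2 difference 1.60 ± 0.13, SE, adjusted p = 0.00275). In all, 1 member of this list of 14 rose and 2 fell, beside 0.641% and 0.304% of all genes tested.

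Several output genes of salicylic acid signalling were higher in rdd. PR1 had 209 and 250.1 FPKM in rdd leaves, against 47.4 and 52.5 FPKM in WT leaves. Its log2 difference was 2.17 ± 0.18 (SE, adjusted p = 0.00227), a 4.6-fold ratio of means. PR5, a thaumatin-like protein gene, had 356 and 409.9 FPKM in rdd leaves and 76.2 and 71.3 FPKM in WT leaves (log2 difference 2.36 ± 0.33, SE, adjusted p = 0.0249). PR2, which encodes a beta-1,3-glucanase, had 855 and 1004 FPKM in rdd leaves and 332 and 315 FPKM in WT leaves (log2 difference 1.52 ± 0.21, SE, adjusted p = 0.0239). In all 3 genes both mutant libraries lay well above both WT libraries. DLO1, which encodes a salicylic acid hydroxylase, had 27.8 and 24.8 FPKM in rdd leaves and 8.85 and 9.44 FPKM in WT leaves (log2 difference 1.43 ± 0.18, SE, adjusted p = 0.0187).

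These 4 were the members called among 26 tested genes of salicylic acid and systemic resistance, none was lower, and the list median was 0.07. Over all genes tested, 0.641% were called higher and 0.304% lower, and the median was -0.01. The genes upstream were not called. ICS1, which makes the salicylic acid precursor, had 103 and 97.4 FPKM in rdd leaves and 62.8 and 56.0 FPKM in WT leaves (adjusted p = 0.198). The receptor gene NPR1 had 57.4 and 48.9 FPKM in rdd leaves and 56.4 and 60.1 FPKM in WT leaves (adjusted p = 0.675), and NPR3 had 38.1 and 36.2 FPKM in rdd leaves and 50.3 and 50.7 FPKM in WT leaves (adjusted p = 0.0663). With 1 library left out at a time the list kept 1 call, PR1, in every case, and PR2, PR5 and DLO1 lost theirs whichever of the 4 libraries was left out (adjusted p from 0.0854 to 0.179). A chitinase gene, CHI (89.7 and 108.8 FPKM in rdd leaves, 24.3 and 25.1 FPKM in WT leaves, adjusted p = 0.0187), did the same (adjusted p from 0.073 to 0.137).

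WRKY6, a transcription factor gene linked to senescence and defence, rose. It had 242 and 233 FPKM in rdd leaves, against 101 and 95.8 FPKM in WT leaves (log2 difference 1.27 ± 0.09, SE, adjusted p = 0.00121), and remained called with any 1 of the 4 libraries left out. It was the 1 called among 10 tested senescence genes, beside 0.945% of all genes tested. SAG13 had 8.06 and 6.03 FPKM in rdd leaves and 2.67 and 2.69 FPKM in WT leaves (adjusted p = 0.0976), and SAG12, the classical late-senescence gene, was listed at 0 in all 4 libraries.

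Among 26 tested indole glucosinolate and camalexin genes, 2 rose and 1 fell, beside 0.641% and 0.304% of all genes tested. CYP71A12, a cytochrome P450 gene of camalexin and indole-carbonyl synthesis, had 18.6 and 18.03 FPKM in rdd leaves and 4.38 and 4.37 FPKM in WT leaves (log2 difference 1.85 ± 0.14, SE, adjusted p = 0.00172). The indole glucosinolate methyltransferase gene IGMT1 had 20.8 and 14.0 FPKM in rdd leaves and 6.25 and 5 FPKM in WT leaves (adjusted p = 0.0187). GSTU4, a glutathione transferase gene, fell. It had 4.68 and 13.6 FPKM in rdd leaves and 96.6 and 163 FPKM in WT leaves (log2 difference -3.79 ± 0.45, SE, adjusted p = 0.0187), and its libraries also differed widely within each genotype. PAD3, the last enzyme of camalexin synthesis, had 381 and 388 FPKM in rdd leaves and 212 and 261 FPKM in WT leaves (adjusted p = 0.0915). Of 26 tested members 21 were positive and the median was 0.22, beside 47.3% positive and a median of -0.01 over all genes tested. Without MYB122, which met the filter through 1 group alone, 21 of 25 were positive. CYP71A12 remained called with any 1 library left out. IGMT1 lost its call without rdd replicate 1 (adjusted p = 0.0686), WT replicate 1 (0.0549) or WT replicate 2 (0.14), and GSTU4 without WT replicate 1 (0.0541) or WT replicate 2 (0.137). Outside this list, the aliphatic glucosinolate gene CYP79F1 (4.88 and 7.08 FPKM in rdd leaves, 25.0 and 17.75 FPKM in WT leaves, adjusted p = 0.0364) and the peroxidase gene PRX37 (2.2 and 1.94 FPKM in rdd leaves, 5.89 and 5.20 FPKM in WT leaves, adjusted p = 0.0442) were lower, and both lost their call with any 1 library left out (adjusted p up to 0.152 and 0.208).

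Of 10 tested genes of guard cells and the stomatal lineage, 3 rose and none fell, beside 0.641% and 0.304% of all genes tested. SLAC1, the guard cell anion channel, had 11.8 and 11.3 FPKM in rdd leaves and 4.67 and 5.67 FPKM in WT leaves (log2 difference 1.03 ± 0.13, SE, adjusted p = 0.0187). MYB60, a guard cell transcription factor gene, had 24.8 and 22.5 FPKM in rdd leaves and 11.7 and 12.7 FPKM in WT leaves (log2 difference 0.90 ± 0.12, SE, adjusted p = 0.02). FAMA, which drives the last step of guard cell formation, had 26.3 and 24.7 FPKM in rdd leaves and 15.2 and 13.5 FPKM in WT leaves (log2 difference 0.79 ± 0.11, SE, adjusted p = 0.0248). Each gene had both rdd values above both WT values. SLAC1 overlaps AT1G12470, so its reads cannot be assigned with certainty. Of 12 list members 10 were tested, and TMM, a receptor of the stomatal lineage, met the filter only through the rdd libraries. The other 9 differences were all positive with a median of 0.52, beside 47.3% positive and a median of -0.01 over all genes tested, and 7 of the 9 had both rdd libraries above both WT libraries, beside 18.9% of all genes tested. SPCH and MUTE, which act earlier in the lineage, were below the filter, at 1.27 or less in rdd leaves and 0.06 or less in WT leaves.

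The summed level of the 10 list members other than the abundant myrosinase genes TGG1 and TGG2 was 118 and 111 FPKM in rdd leaves, against 75.4 and 67.9 FPKM in WT leaves. With TGG1 and TGG2 the sums were 2740 and 2213 FPKM in rdd leaves and 1797 and 2158 FPKM in WT leaves. In bulk leaf RNA, more cells of a type and more RNA per cell cannot be told apart. All 3 calls were lost with any 1 of the 4 libraries left out (adjusted p from 0.0653 to 0.175). The median of the same 10 genes, TMM counted, was 0.58 in the separate libraries of water-treated leaves without bacteria, where 9 were positive and TMM was called. Over all genes with a value in both sets, 44.6% were positive there and the median was -0.02. TMM had 13.2, 9.01 and 10.0 FPKM in those rdd leaves and 1.60, 1.43 and 1.06 FPKM in those WT leaves (adjusted p = 0.0135), and 2.2 and 1.74 FPKM in rdd leaves and 0.65 and 0.77 FPKM in WT leaves after water and then hrcC (adjusted p = 0.164). MPK12, a guard cell MAP kinase gene, and CHX20, a guard cell cation exchanger gene, are not on the list and were chosen after their values were seen. MPK12 had 19.1 and 17.2 FPKM in rdd leaves and 8.18 and 9.23 FPKM in WT leaves (adjusted p = 0.0118), and CHX20 had 43.9 and 39.0 FPKM in rdd leaves and 21.9 and 27.5 FPKM in WT leaves (adjusted p = 0.0435). Whether these calls hold with 1 library left out was not checked.

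Of 6 tested epidermal genes, PDF1, an epidermis-specific gene, met the filter only through the rdd libraries. It had 3.55 and 3.08 FPKM in rdd leaves and 0.30 and 0.44 FPKM in WT leaves (log2 difference 1.65 ± 0.16, SE), and its call is no support for a difference for that reason. None of the other 5 was called. ATML1, the epidermal identity gene, had 31.7 and 27.4 FPKM in rdd leaves and 25.1 and 23.7 FPKM in WT leaves (adjusted p = 0.364). The summed epidermal level was 1246 and 1311 FPKM in rdd leaves and 1146 and 1060 FPKM in WT leaves, and the trichome gene GL1 was listed at 0 in all 4 libraries. Whether a different share of epidermis in the sampled leaves had a part in any result was not tested.

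**Figure D2:**
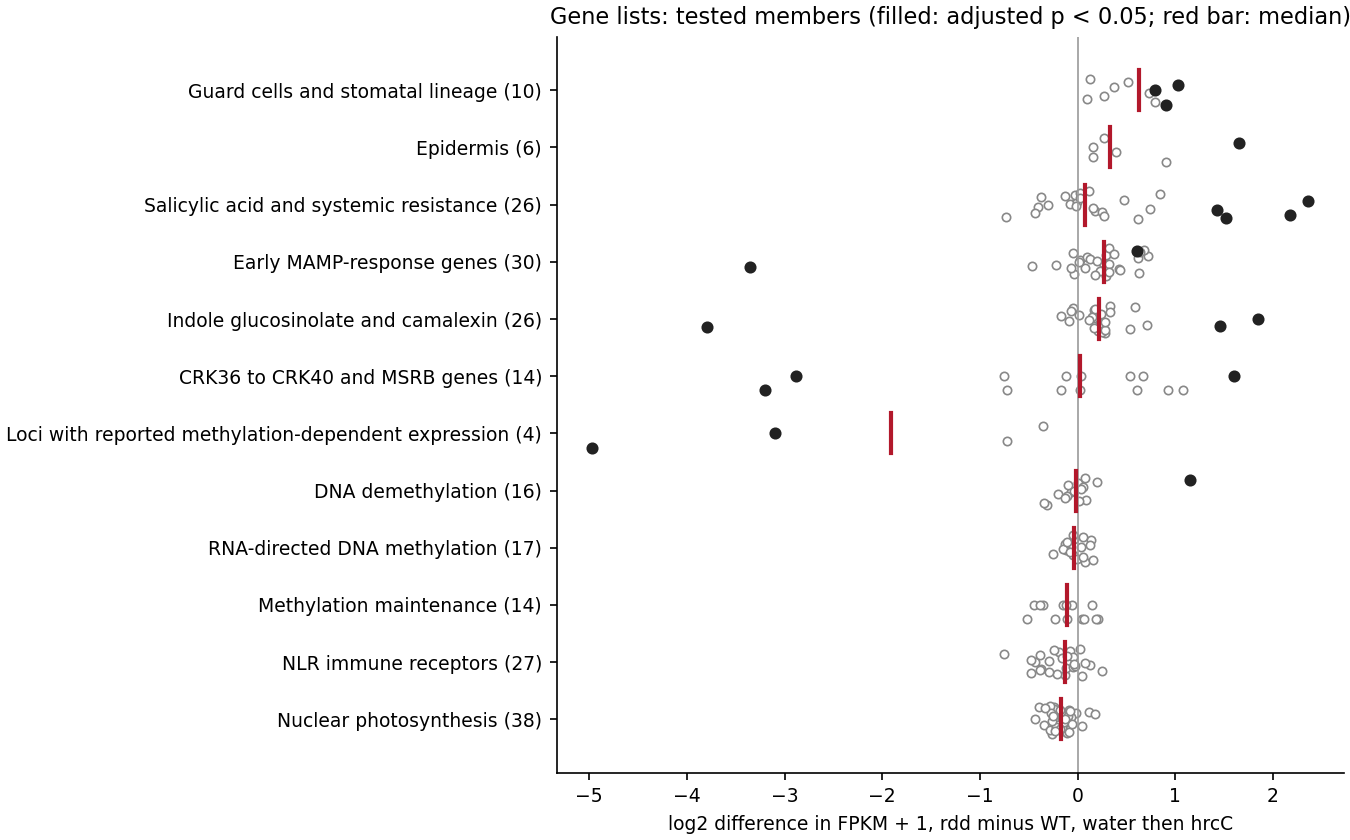
Log2 difference of FPKM + 1 (rdd minus WT, horizontal axis) for each tested member of 12 gene lists after water and then hrcC, with the number tested in brackets. Filled points passed an adjusted p of 0.05, open points did not, and red bars are list medians. The guard cell list lies to the right of 0 with a median of 0.62, the photosynthesis list slightly to the left with -0.17, TMM and PDF1 met the filter only through the rdd libraries, and members below -2 are MRD1, QQS, CRK39, CRK40, NHL10 and GSTU4.

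The NLR immune receptor and nuclear photosynthesis lists held no call, which does not cover such genes outside the lists. The called neighbours AT1G58807, AT1G58848, AT1G59124 and AT1G59218, given below, are on neither list. In 16 of 27 tested NLR genes both rdd libraries were below both WT libraries (21.9% of all genes tested), and the median was -0.13. The lowest adjusted p was that of the helper NLR gene ADR1, with 6.19 and 4.93 FPKM in rdd leaves and 10.3 and 9.79 FPKM in WT leaves (adjusted p = 0.0634). Among 38 nuclear photosynthesis genes, 22 had both rdd libraries below both WT libraries, 3 differences were positive and the median was -0.17. After flg22 and then hrcC 3 of the 38 were positive as well (median -0.19), and 24 h after water without bacteria 19 were. Of the 27 NLR genes, 5 were positive after water and then hrcC, 9 after flg22 and then hrcC, and 2 at 24 h after water. Over all genes the positive shares in these 3 settings were 47.3%, 55.5% and 44.6%. The Calvin cycle gene PRK had 369.95 and 338.5 FPKM in rdd leaves and 481 and 422 FPKM in WT leaves (adjusted p = 0.249). No call was held either by the lists for pattern receptors, jasmonate, ethylene, the circadian clock, abscisic acid and cold, and phloem companion cells. The same was true of root, flowering, heat shock, auxin and growth, and cell division (limma). The medians of these lists lay between -0.21 and 0.20. Of all 17780 genes tested, 168 were called (0.945%), and 2198 had an unadjusted p under 0.05. Jasmonate genes summed to 5687 and 9986 FPKM in rdd leaves and 7272 and 10300 FPKM in WT leaves, and heat shock genes to 461 and 298 FPKM in rdd leaves and 324 and 537 FPKM in WT leaves, so both lists varied within each genotype as widely as between them.

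Among the remaining large increases, CYP97B3, a cytochrome P450 gene of the carotenoid hydroxylase family, had 49.2 and 44.7 FPKM in rdd leaves, against 4.63 and 4.36 FPKM in WT leaves. Its log2 difference was 3.12 ± 0.12 (SE, adjusted p = 3.95e-05), a 10.4-fold ratio of means, and it remained called with any 1 library left out. EMB2656, named for an embryo-defective phenotype, had 5.94 and 5.37 FPKM in rdd leaves and 1.18 and 1.03 FPKM in WT leaves (adjusted p = 0.00499). It overlaps AT5G37640 and lost its call without rdd replicate 1 (adjusted p = 0.0515) or WT replicate 2 (0.0611). The genes without a symbol AT4G29020, AT2G04570 and AT1G68620 rose by log2 differences of 1.96, 1.70 and 1.63 and remained called with any 1 library left out. AT3G49340 (1.75) lost its call without WT replicate 2 (adjusted p = 0.0824), AT1G04800 (1.78) without either rdd replicate or WT replicate 1 (adjusted p from 0.0549 to 0.105), and the non-coding AT3G15536 (1.89) without any 1 of the 4 libraries (adjusted p from 0.0653 to 0.192).

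Some called genes were neighbours. Of the 54 lower genes, 18 lay within 5 tested genes of another in gene order (RefSeq annotation of TAIR10.1), in 7 runs. Of the 114 higher genes 16 did, in 6 runs. No matching share for other tested genes was worked out, so these counts do not show clustering. The runs of lower genes include the overlapping MRD1 and HEI10. The runs were picked out after their values were seen. On chromosome 4, KELP (28.5 and 26.6 FPKM in rdd leaves, 60.4 and 52.0 FPKM in WT leaves), UGE5, AT4G10970 (13.1 and 12.3 FPKM in rdd leaves, 62.2 and 52.9 FPKM in WT leaves) and AT4G11000 all fell. On chromosome 1, AT1G58807 (24.9 and 24.3 FPKM in rdd leaves, 68.9 and 70.2 FPKM in WT leaves), AT1G58848, AT1G59124 and AT1G59218 fell together with log2 differences from -1.53 to -0.83. Reads that match more than 1 of these 4 genes could be split by the counting, so their separate levels are uncertain. The longest run of higher genes, 6 on chromosome 1, reached from AT1G68580 to the receptor-like kinase gene PERK9 (56.5 and 61.0 FPKM in rdd leaves, 21.4 and 20.9 FPKM in WT leaves, adjusted p = 0.00123). Among 600 tested neighbours of ROS1, 300 on each side, 4 were higher and 2 lower, shares of 0.667% and 0.333% beside 0.641% and 0.304% of all genes.

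Leaves sampled 24 h after water without bacteria gave a separate view of the same genotypes, with 3 libraries each. There 16 of 18164 genes were called (0.0881%), 4 higher (0.022%) and 12 lower (0.0661%). The 6 called lower in both settings were MRD1, AT2G33830, AT4G04223, LBD26, CRK40 and AT2G40960, which is 11.1% of the lower genes after hrcC and 50% of those without it. AT2G40960 had 1.29 and 1.37 FPKM in rdd leaves and 9.03 and 7.85 FPKM in WT leaves after hrcC (adjusted p = 0.00123), and 2.73, 1.49 and 2.46 FPKM in rdd leaves and 14.8, 15.2 and 28.7 FPKM in WT leaves without it (adjusted p = 0.0165). No gene was called higher in both. With the replicate number as a block the count without bacteria was 39, 17 higher and 22 lower, of which 5 higher genes (AT2G39690, LTL1, AT4G24480, AT4G29020 and EMB2656) and 10 lower ones were called in the same direction after hrcC, and LTL1 met the filter there only through the rdd libraries. With median-ratio scaling the count without bacteria was 8 higher and 13 lower. In the fit without the block, 92 of the 112 higher genes with a value there (82.1%) had a positive difference and 2 of the 49 lower genes did (4.08%), beside 44.6% of all genes. The 24 h libraries numbered 1 and 2 hold 5.07% to 5.54% of FPKM in organelle genes and those numbered 3 hold 0.0856% to 0.0979%, and without those numbered 3 the count was 24, of which 9 were among the 16. Leaving out rdd replicates 1, 2 and 3 in turn left 2, 2 and 3 calls, and leaving out WT replicates 1, 2 and 3 left 7, 8 and 10.

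**Figure D3:**
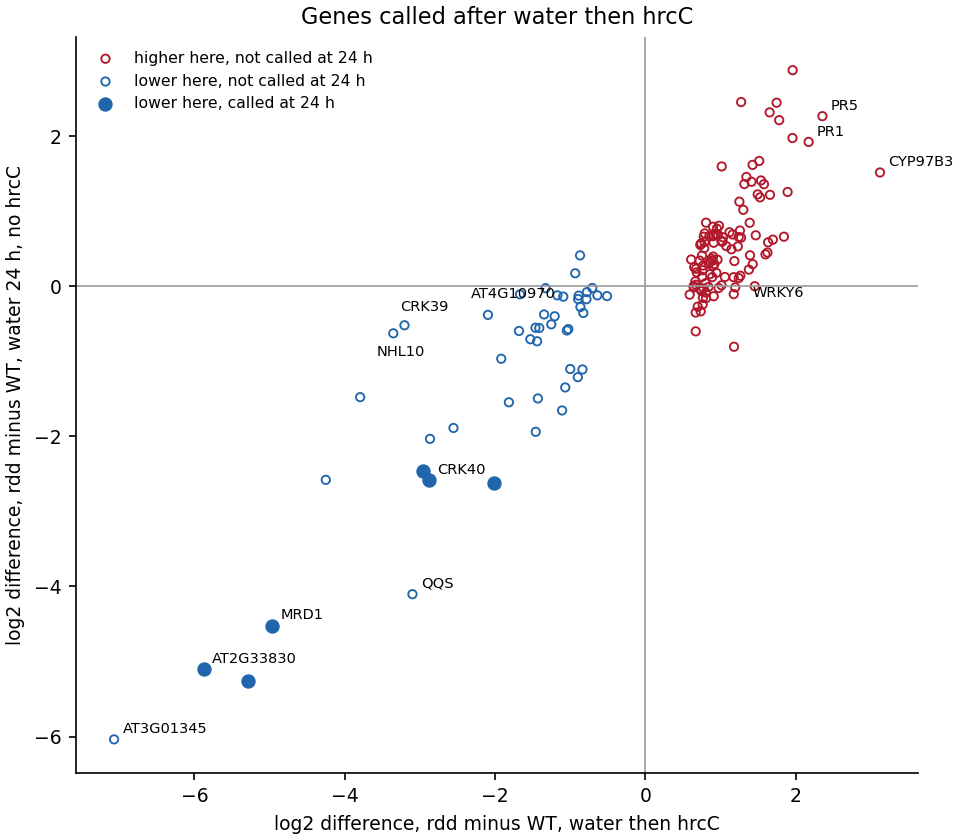
Log2 difference (rdd minus WT) after water and then hrcC on the horizontal axis against that in separate libraries of leaves 24 h after water without bacteria on the vertical axis, for called genes with a value in both. Red marks genes higher and blue genes lower after hrcC, and filled points were also called without bacteria in the fit with no replicate block. 6 lower genes are filled, no higher gene is, and CRK39, NHL10 and AT4G10970 lie at -0.52, -0.63 and -0.38 on the vertical axis.

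On the log2(FPKM + 1) scale, some lower genes showed a larger genotype difference with bacteria than without. CRK39 was near 0 without bacteria, at 0.06, 0 and 0.13 FPKM in rdd leaves and 0.67, 0.72 and 0.23 FPKM in WT leaves, and after hrcC it had 0.99 and 0.61 FPKM in rdd leaves and 15.4 and 15.7 FPKM in WT leaves. The difference between the genotype effects with and without hrcC was -2.68 ± 0.23 (SE, adjusted p = 0.000247). This scale understates changes of low genes, and the log2 difference of CRK39 without bacteria was -0.52. The test therefore does not compare ratios between the genotypes. AT4G10970 had 18.7, 24.1 and 17.82 FPKM in rdd leaves and 29.6, 25.2 and 24.7 FPKM in WT leaves without bacteria, and its genotype effect differed by -1.71 ± 0.22 (SE, adjusted p = 0.00884). These were 2 of the 3 genes called in that test of 19048 (0.0157%), and none was called in the positive direction, with 291 genes at an unadjusted p under 0.05. The third, AT2G38905, met the filter only through rdd libraries without bacteria. Without the 24 h libraries numbered 3 that count was 12, 5 in the positive and 7 in the negative direction, which kept all 3, and without WT 24 h replicate 3 alone it was 5, 2 positive and 3 negative. NHL10 had 0.34, 0.30 and 0.09 FPKM in rdd leaves and 1.95, 0.84 and 0.29 FPKM in WT leaves without bacteria, and its difference of -2.73 ± 0.60 did not pass (SE, adjusted p = 0.884). PR1 had 100.4, 103.7 and 210.4 FPKM in rdd leaves and 76.4, 9.94 and 47.7 FPKM in WT leaves without bacteria, and PR5 had 242, 371 and 226 FPKM in rdd leaves and 75.6, 39.7 and 58.3 FPKM in WT leaves. Both had every rdd value above every WT value there too, with log2 differences of 1.92 and 2.27 that did not pass (adjusted p = 1 and 0.0944). The hrcC and the 24 h libraries are separate sets, so the bacteria and any difference between the sets cannot be told apart.

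**Figure D4:**
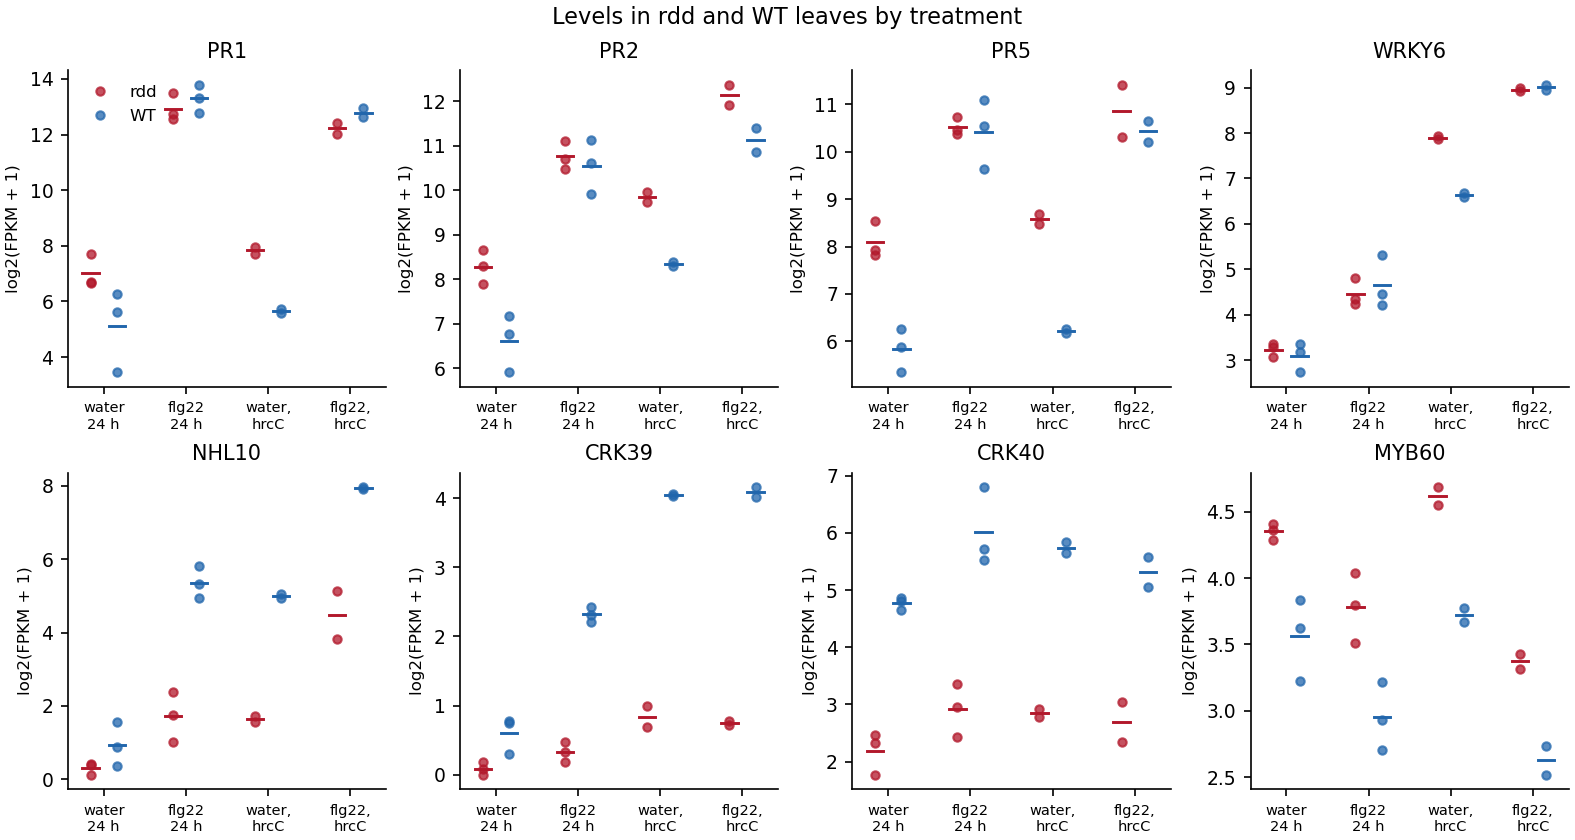
Levels of 8 genes as log2(FPKM + 1) in rdd (red) and WT (blue) leaves 24 h after water or flg22 without bacteria (3 libraries per group) and after water or flg22 followed by hrcC (2 per group). Points are libraries, bars are means, and each vertical axis has its own range. PR1, PR2, PR5 and WRKY6 are higher in rdd than in WT after water and then hrcC, NHL10 and CRK39 are high in WT leaves given flg22 or bacteria and lower in rdd, and CRK40 is lower and MYB60 higher in rdd in each treatment.

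Leaves pretreated with flg22 in place of water before the same hrcC challenge had 370 calls (2.08%), 259 higher in rdd (1.46%) and 111 lower (0.624%). Without rdd flg22 replicate 1 the count was 113 (51 higher and 62 lower), without rdd flg22 replicate 2 it was 204 (115 higher and 89 lower), without WT flg22 replicate 1 it was 74 (43 higher and 31 lower), and without WT flg22 replicate 2 it was 164 (122 higher and 42 lower). Of the genes called after water and then hrcC, 38 higher ones were called higher there too, 33.3% of the higher genes after water and 14.7% of those after flg22. For lower genes the shared number was 36, 66.7% of those after water and 32.4% of those after flg22. The 2 comparisons use separate libraries but 1 estimate of spread per gene. NHL10 had 13.3 and 33.9 FPKM in rdd leaves and 242 and 251 FPKM in WT leaves after flg22 and then hrcC, a log2 difference of -3.47 (adjusted p = 0.00467) close to its value after water. The guard cell list, with TMM counted, had 9 of 10 positive and a median of 0.41 there. The early MAMP-response list had 8 of 30 positive and a median of -0.25. Over all genes tested, 55.5% were positive there and the median was 0.03.

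The test of the difference between the pretreatments called 17 genes (0.0956%), 8 with a larger (0.045%) and 9 with a smaller (0.0506%) rdd minus WT value after water. PR1 was among them. After flg22 and then hrcC it had 4188 and 5511 FPKM in rdd leaves and 6297 and 7899 FPKM in WT leaves, so the genotypes stood in the opposite order from water and then hrcC, and the difference of the effects was 2.73 ± 0.25 (SE, adjusted p = 0.0258). WRKY6 had 483 and 505 FPKM in rdd leaves and 534 and 496 FPKM in WT leaves after flg22 and then hrcC, overlapping groups at a level above both genotypes after water, and the difference of the effects was 1.32 ± 0.13 (SE, adjusted p = 0.0272). PCR1, named for plant cadmium resistance, had 829 and 710.3 FPKM in rdd leaves and 514 and 494 FPKM in WT leaves after water, and 743 and 875 FPKM in rdd leaves and 1734 and 1758 FPKM in WT leaves after flg22 (difference 1.72 ± 0.18, SE, adjusted p = 0.0301). Of the 17 genes, 4 met the filter only through 1 group given flg22. Of the 17 calls, 7 remained without rdd water replicate 2, 11 without rdd flg22 replicate 2, and 0 without any 1 of the other 6 libraries. PR5 and PR2 did not pass this test (adjusted p = 0.203 and 0.568).

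Over all 7 settings in which rdd was compared with WT, 4 leaf and 3 seedling, 4 of the 54 lower genes were called lower in each: MRD1, AT2G33830, AT4G04223 and CRK40. Of the 54, 15 were called lower after water and then hrcC and in no other setting, and of the 114 higher genes 75 were, while no higher gene was called in more than 4. A call in 1 setting alone is not shown to differ from the others. Leaves 24 h after flg22 had 31 calls (0.171%), 5 higher (0.0275%) and 26 lower (0.143%), of which 1 and 11 were shared with water and then hrcC in the same direction. In seedlings, 61 genes were called at 0 h (0.323%, of which 0.09% higher and 0.233% lower), 54 after 1 h of flg22 (0.286%, of which 0.122% higher and 0.164% lower) and 180 after 3 h (0.953%, of which 0.402% higher and 0.551% lower). Of the 104 lower genes at 3 h, 20 were lower here, 37% of the lower genes here and 19.2% of those in seedlings. AT3G01345 was called lower in each seedling setting and in both hrcC settings. It had 0, 0 and 0.12 FPKM in rdd leaves and 59.1, 60.5 and 84.7 FPKM in WT leaves 24 h after water, but its test there gave an adjusted p of 0.433, with a spread that includes 1 flg22-treated WT library listed at 0. CYP97B3 was positive in all 7 settings and called in 4. Its groups overlapped 24 h after water, at 53.22, 47.16 and 91.92 FPKM in rdd leaves and 12.87, 12.47 and 54.66 FPKM in WT leaves. At 24 h after flg22, WT replicate 2 had 42.35 FPKM, just under the lowest rdd value of 42.65 FPKM.

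**Figure D5:**
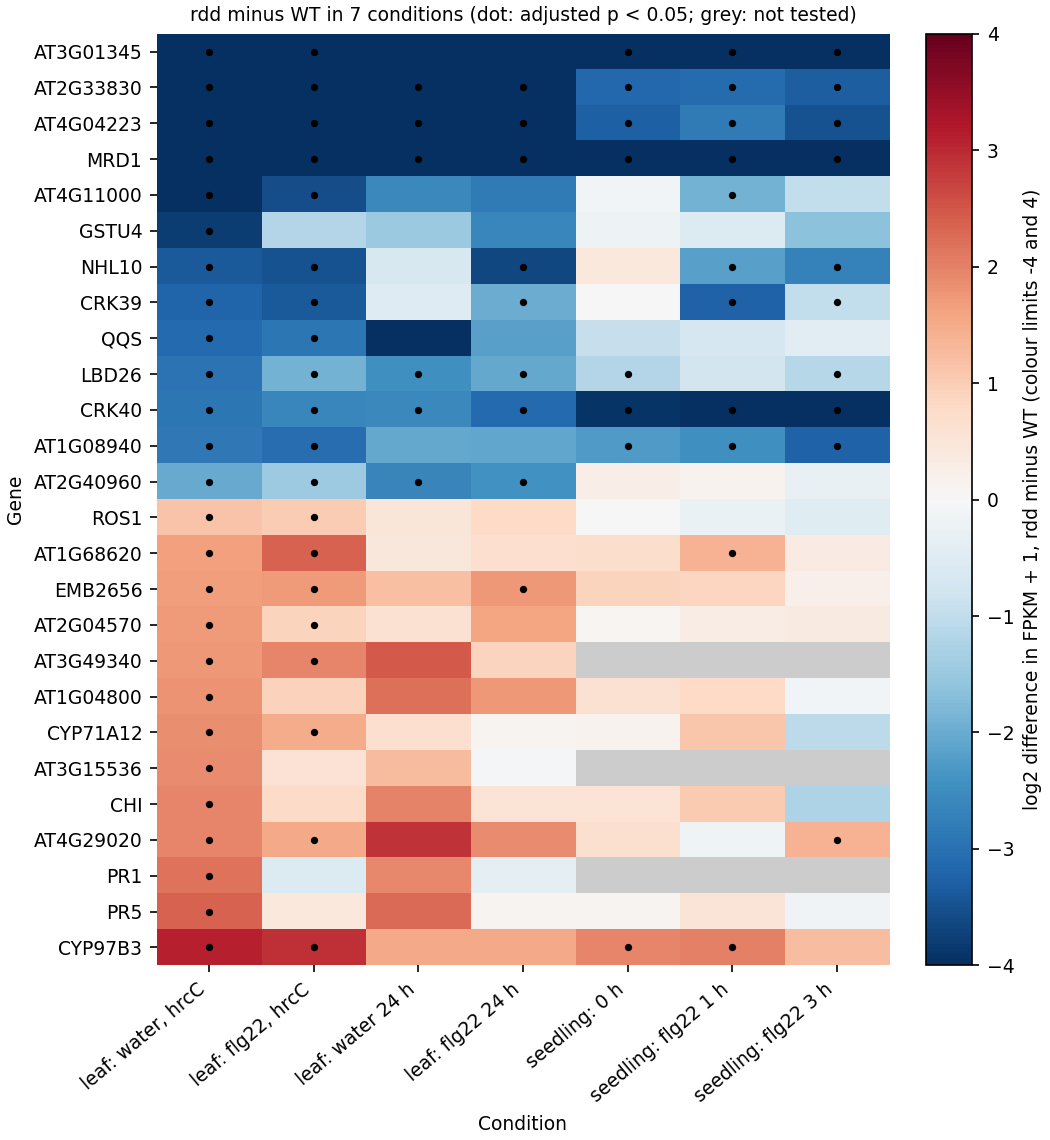
Log2 difference of FPKM + 1 (rdd minus WT) in colour for 26 genes (rows) in 4 leaf and 3 seedling settings (columns), blue for lower and red for higher in rdd, with colours capped at -4 and 4. Black dots mark an adjusted p under 0.05 and grey cells were not tested. MRD1, AT2G33830, AT4G04223 and CRK40 carry a dot in every column, while PR1 and PR5 carry one after water and then hrcC.

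In WT leaves, flg22 for 24 h raised 2689 of 18164 genes (14.8%). Of the 112 genes higher in rdd after water and then hrcC that had a value there, 39 were raised by flg22 in WT (34.8%), and of the 49 lower genes 13 were (26.5%), beside 15.5% of the same genes overall. PR1, PR2 and PR5 were among the higher genes raised by flg22, with log2 differences (flg22 minus water, WT leaves) of 8.19, 3.94 and 4.59, and NHL10, CRK39 and CRK40 among the lower genes, with 4.42, 1.71 and 1.24.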

How the data were processed

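RNA was sequenced from the 4 water-then-hrcC libraries and the other libraries of the series. The authors deposited one value per gene and library with no stated unit, read here as FPKM from their totals and from the size of the smallest steps, which fell with gene length. Per the submitters' processing notes, HISAT2, featureCounts and DESeq2 were among the tools and TAIR10 the build, with versions not given in the sources used here. No counts were at hand, so no count model was run. The deposited FPKM values were put on the log2(FPKM + 1) scale, which understates changes of low genes. Genes that reached 1 FPKM in 2 or more of the 8 hrcC libraries were tested with limma 3.58.1 in R 4.3.3 (trend and robust variances, 4 residual degrees of freedom, two-sided, Benjamini-Hochberg over all 17780 genes, called under 0.05). The 24 h and seedling sets needed 1 FPKM in 3 libraries. In simulated data of this comparison, 93% of genes changed by a log2 of 2 and 61% of those changed by 1 were called. In that simulation of 17206 genes, 2.53% of the calls were false. Changed genes were drawn only from those well above the filter in WT leaves after water, and the noise was independent and normal. These shares therefore do not cover low genes or other kinds of noise.

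The members and lists were chosen with earlier results of these data known, and the cell division list after their values were seen. Genes named are the mutated genes and DME, the 12 largest called changes per direction averaging at least 5 FPKM in the higher group with no overlap, up to 4 members per list by adjusted p, up to 6 shared with water 24 h per direction, and up to 4 per direction of each test of a difference. HEI10, TMM, MPK12, CHX20, members of runs, and list members beyond those 4 were named after their values were seen. Deviations of same-numbered rdd and WT libraries correlated with r = 0.101 after water and then hrcC and 0.111 after flg22 and then hrcC. Pairs of groups from different pretreatments lay between -0.104 and -0.0719. As none of these was strong, the numbers were not taken as pairs, and counts with the replicate number as a block are given below. Alternatives changed the pseudocount, filter, scaling, variance model, organelle genes, libraries in the fit and single libraries. Names come from RefSeq (TAIR10.1), which matched 97.7% of identifiers.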

Additional observations from a re-analysis of the deposited data

Results flagged for a closer look

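The rdd minus WT difference itself differed between the water and flg22 pretreatments before hrcC (log2 difference after water minus that after flg22, limma) in the genes below. PR1 (2.73, adjusted p = 0.0258), WRKY6 (1.32, adjusted p = 0.0272) and PCR1 (1.72, adjusted p = 0.0301) are described above. AT4G39404, a non-coding RNA, differed by 2.42 (adjusted p = 0.0256); it was listed at 0 in all 4 libraries after water, and at 0 and 0 FPKM in rdd leaves against 4.32 and 4.35 FPKM in WT leaves after flg22. It met the filter on low values only through the WT libraries after flg22, so the test is no support for a difference. AT3G22183 differed by -2.76 (adjusted p = 0.0256), being listed at 0 in all 4 libraries after water, with 5.25 and 6.36 FPKM in rdd leaves and 0 in both WT libraries after flg22. The same holds for its test, as it met the filter only through those rdd libraries. AT1G24881 differed by -1.96 (adjusted p = 0.0256), with 9.18 and 7.56 FPKM in rdd leaves and 7.85 and 8.32 FPKM in WT leaves after water, and 37.1 and 33.3 FPKM in rdd leaves and 8.14 and 7.99 FPKM in WT leaves after flg22. AT2G17500, a PIN-LIKES gene, differed by -2.22 (adjusted p = 0.0258), with 2.44 and 3.06 FPKM in rdd leaves and 2.66 and 2.49 FPKM in WT leaves after water, and 25.0 and 22.7 FPKM in rdd leaves and 3.68 and 4.54 FPKM in WT leaves after flg22. DGL, a gene annotated as DONGLE, differed by -2.45 (adjusted p = 0.0275), with at most 0.05 FPKM after water, and 7.05 and 5.78 FPKM in rdd leaves and 0.21 and 0.44 FPKM in WT leaves after flg22, and it too met the filter only through the rdd libraries after flg22, so its test is no support either.

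The rdd minus WT difference also differed between water-treated leaves with and without hrcC. CRK39 (-2.68, adjusted p = 0.000247) and AT4G10970 (-1.71, adjusted p = 0.00884) are described above. AT2G38905 differed by -1.96 (adjusted p = 0.000584); it was listed at 0 in all 4 libraries after hrcC, and had 2.52, 2.47 and 3.86 FPKM in rdd leaves and 0 in the 3 WT libraries without hrcC. It met the filter only through those rdd libraries, so the test is no support for a difference.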

How the results depend on the processing

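None of the 39 named genes called after water and then hrcC changed direction under any setting run that gave it a value. Many of these 39 lost their call with 1 of the 4 libraries left out, as given above. PDF1 was not tested without either rdd library. The 168 calls after water and then hrcC became 87 when only the 4 compared libraries were fitted (50 higher and 37 lower, 57.5% higher against 67.9%), and 35 to 197 with 1 library left out. Calls after flg22 and then hrcC, 370 in all, ranged from 74 to 355 with 1 library left out. The 17 calls of the pretreatment difference became 8 with a pseudocount of 0.1, 29 with a pseudocount of 5, 8 with no filter on low values, and 0 to 30 with 1 library left out. The 16 calls 24 h after water ranged from 2 to 10 with 1 library left out. The 3 calls of the hrcC difference became 12 without the 24 h libraries numbered 3, a setting chosen after seeing the data, and 2 to 5 with 1 library left out. The causes were not tested. With the replicate number as a block, the counts were 100 after water and then hrcC, 1 for the pretreatment difference and 39 for water 24 h. The other settings left the count after water and then hrcC between 129 and 171. Read depth is unknown, and 2 libraries per group limit what can be called.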

Other observations

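EXT3, EXPA16 and STP4 rose in rdd leaves after water and then hrcC, belong to no list above and were chosen here after their values were seen. EXT3, an extensin of the cell wall, had 650.5 and 721 FPKM in rdd leaves and 299 and 275 FPKM in WT leaves (log2 difference 1.25, adjusted p = 0.00499, limma). The expansin gene EXPA16 had 83.0 and 85.5 FPKM in rdd leaves and 35.9 and 26.7 FPKM in WT leaves (adjusted p = 0.0118). The sugar transporter gene STP4 had 790.3 and 770.2 FPKM in rdd leaves and 461 and 399.5 FPKM in WT leaves (adjusted p = 0.0311). Lhca5, a light-harvesting gene of photosystem I that is outside the photosynthesis list, fell, with 109.6 and 107.5 FPKM in rdd leaves and 156 and 154 FPKM in WT leaves (log2 difference -0.51, adjusted p = 0.0317), and was also named after its values were seen. MAF5, a member of the flowering list, had 31.3 and 25.4 FPKM in rdd leaves and 3.18 and 0.65 FPKM in WT leaves, a log2 difference of 3.47 that did not pass (adjusted p = 0.13), and it was called 24 h after water (log2 difference 2.98, adjusted p = 0.024).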
